A study of Arabidopsis thaliana with 8 samples.

Results

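Plants make small, cysteine-rich peptides that damage invading fungi and bacteria, and defensins and thionins are the best known classes of them. In Arabidopsis the defensin gene PDF1.2 is the standard marker of the branch of jasmonate signalling that works together with ethylene, in which ERF-type regulators switch on antifungal genes in the leaf. The thionin gene THI2.1 is also known to be induced by jasmonate and is highly expressed in flowers and siliques, whereas THI2.2 is known mainly from seedlings and is not a jasmonate marker. WRKY proteins are plant-specific DNA-binding regulators with known parts in senescence and in the balance between defence hormones.

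The genes described here are the defensin genes PDF1.2 (AT5G44420) and PDF1.2b (AT2G26020) and the thionin genes THI2.1 (AT1G72260) and THI2.2 (AT5G36910). The genes were taken by their names in the platform annotation, with earlier results of these data known. They are 4 genes with 1 probe set each, of 22746 probe sets on the Affymetrix ATH1 oligonucleotide array besides its controls, and all 4 passed the filter on dim probe sets.

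Total RNA came from whole rosettes, without stem and flowers, of plants that were 35 days old and had just begun to bolt. Each of 6 T-DNA knockouts of a WRKY gene was measured on 1 array, and these lines are named KO-02, KO-07, KO-30, KO-40, KO-54 and KO-56. The other 2 arrays, Col-0-L and Col-0-S (L and S below), held the wild-type accession Col-0, and what those letters stand for was not given. Growth was in a chamber at 70% humidity with 22 °C days and 19 °C nights, and the insecticide imidacloprid was listed among the conditions of every sample, Col-0 included. The labels do not say which WRKY gene each insertion hits, so no line was checked against its target, and a line measured once cannot show whether its values belong to the insertion or to that sample. Whether arrays of a group stem from plants raised apart is not recorded, and every p-value rests on the spread among these arrays. That spread mixes any differences between the 6 separate lines with sample and technical differences, which cannot be told apart. The small number of arrays limits the precision.

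Values are MAS5 signals on a linear scale with the authors' scaling, and the mean signal without the lowest and highest 2% of probe sets was 100.01 on every array. The actin control gave a 3' to 5' ratio, a measure that grows with RNA breakdown, of 8.41 to 12.0 on 6 arrays, but of 29.5 for KO-54 and 15.4 for KO-30. Of the 7 leaf markers, the Rubisco activase gene RCA and the light-harvesting gene LHCB4.1 were paired with a probe set and were bright everywhere. RCA lay between 2710 and 3347 in the lines, against Col-0 signals of 4030 (L) and 3081 (S). None of the 7 flower and 6 root markers was paired with a single-gene probe set in the annotation used here, so stray flower or root tissue was not tested. In whole rosettes, fewer cells expressing a gene and less RNA per cell cannot be told apart.

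PDF1.2 had the widest spread of these genes. Its signal was 2945 in KO-40, 1706 in KO-54, 1344 in KO-02, 1092 in KO-07, 795 in KO-56 and 425 in KO-30, against Col-0 signals of 592 (S) and 368 (L). Thus 5 of the 6 lines lay above both Col-0 arrays, and KO-30 lay between them, so the groups overlapped. From the highest to the lowest line the signal differed 6.94-fold. On the log2(signal + 5) scale, which understates changes of dim genes, the SD over the 6 lines was 0.95, rank 23 of the 15922 probe sets past the filter, where the median probe set had 0.19. The Col-0 arrays also lay far apart, by 0.68, rank 549 by size of that gap, where the median probe set had 0.16.

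In the order of PDF1.2 levels, KO-40 stood above its neighbour KO-54 by 0.79 on the log2 scale, more than the 0.68 between the Col-0 arrays. Every other step down that order, from KO-54 to KO-02, KO-07, KO-56, Col-0-S, KO-30 and Col-0-L, was between 0.20 and 0.47 and thus smaller than the gap within the Col-0 pair.

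PDF1.2b, a close copy of PDF1.2 that encodes a defensin of the same class, followed it array by array. Its signal was 2525 in KO-40, 1572 in KO-54, 1079.5 in KO-02, 923 in KO-07, 651 in KO-56 and 399 in KO-30, against Col-0 signals of 512 (S) and 367 (L). Again 5 of 6 lines were above both Col-0 arrays and KO-30 was between them. KO-40 stood above KO-54 by 0.68 on the log2 scale, KO-54 above KO-02 by 0.54 and KO-07 above KO-56 by 0.50, all more than the 0.48 between the Col-0 arrays. The order of the 8 arrays was the same as for PDF1.2, and the log2 values of the pair had a Pearson r of 0.996 over the 8 arrays and 0.993 without the 2 arrays farthest from the PDF1.2 median. The name of the PDF1.2b probe set ends in x_at, the maker's mark for probes that can also bind other transcripts, so these 2 profiles cannot be taken as independent measurements of separate genes. In the TAIR10.1 gene order, PDF1.2 lies next to PDF1.2c and PDF1.2b next to PDF1.3, neither of which had a single-gene probe set here.

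The thionin genes did not share this profile. THI2.1 had a signal of 111 in KO-30, 74.1 in KO-07, 73.5 in KO-40, 60.2 in KO-54, 43.2 in KO-56 and 37.9 in KO-02, against Col-0 signals of 83.0 (S) and 48.8 (L). The groups overlapped widely: 1 line was above both Col-0 arrays, 2 were below both, and the other 3 lay between them. KO-30, the line with the lowest defensin signals, had the highest THI2.1 signal. Across the 8 arrays THI2.1 had r = -0.16 with PDF1.2 (rho = -0.24). This r was -0.66 without the 2 arrays farthest from the PDF1.2 median, and -0.30 over the 6 lines alone. THI2.2 had r = -0.57 with PDF1.2 over the 8 arrays, but -0.07 over the 6 lines. No step in the order of THI2.1 levels exceeded the 0.71 that separated the Col-0 arrays on the log2 scale.

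THI2.2 was lower in the lines without exception. Its signal was 61.8 in KO-02, 47.1 in KO-07, 46.1 in KO-30, 44.9 in KO-40, 43.9 in KO-56 and 37.8 in KO-54, against Col-0 signals of 86.1 (L) and 66.2 (S). No line reached either Col-0 array, a separation that held for 3.1% of the probe sets tested (494 of 15922). KO-02 came within 0.09 of Col-0-S on the log2 scale, less than the 0.35 between the Col-0 arrays. The lines other than KO-02 were close together, and the SD over all 6 was 0.21 on the log2 scale, near the median probe set. The lowest signal was that of KO-54, the array with the highest actin ratio; the part of RNA quality in it was not tested.

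**Figure D1:**
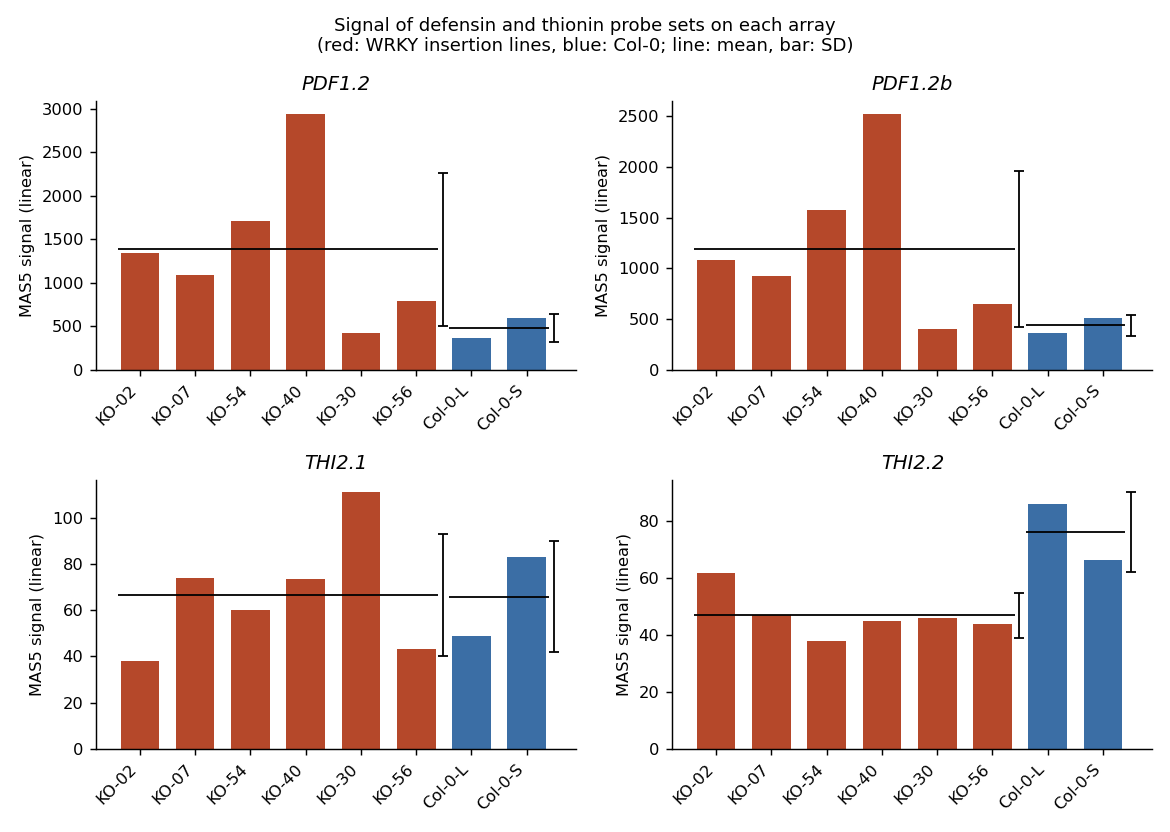
MAS5 signal (linear) of PDF1.2, PDF1.2b, THI2.1 and THI2.2 on each of the 8 arrays, with the 6 insertion lines in red and the 2 Col-0 arrays in blue; horizontal lines are group means and the capped vertical bars beside each group are ± SD. KO-40 is the highest array for both defensins (2945 and 2525), KO-30 is the highest for THI2.1 (111), and every line is below both Col-0 arrays for THI2.2.

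What the knockouts shared was asked by comparing all 6 lines with Col-0. PDF1.2 averaged 1384 ± 883 in the lines (SD, n = 6) and 480.1 ± 158 in Col-0 (SD, n = 2), a log2 difference of 1.31 ± 0.56 (SE) with a 95% confidence interval of 0.06 to 2.56. PDF1.2b averaged 1192 ± 765 in the lines and 439 ± 103 in Col-0, a log2 difference of 1.204 ± 0.55 (-0.01 to 2.41). THI2.1 averaged 66.7 ± 26.4 in the lines and 65.9 ± 24.2 in Col-0, a log2 difference of -0.02 ± 0.34 (-0.77 to 0.73). THI2.2 averaged 46.9 ± 7.97 in the lines and 76.2 ± 14.0 in Col-0, a log2 difference of -0.65 ± 0.16 (-1.01 to -0.28).

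None of the 4 genes passed limma across all probe sets, where 0 of 15922 (0%) were called at an adjusted p under 0.05 and 593 (3.72%) had an unadjusted p under 0.05. The limma adjusted p was 0.989 for PDF1.2, PDF1.2b and THI2.2 and 0.998 for THI2.1. By unadjusted limma p, THI2.2 stood at rank 30 of all probe sets tested, PDF1.2 at rank 479 and PDF1.2b at rank 604. For each gene alone, a two-sided exact permutation test, with 28 ways to divide 8 arrays into 6 and 2, gave p = 0.0357 for THI2.2, the smallest value this design allows. The same exact permutation test gave p = 0.143 for PDF1.2 and PDF1.2b and p = 1 for THI2.1. These 4 tests were not corrected for their number, nor for the choice of the genes with earlier results of these data known. Groups without any overlap were found for 3.1% of the probe sets tested in the direction of THI2.2, and for 3.13% in the opposite direction. How many probe sets reach an exact permutation p of 0.0357 was not counted, so that value alone does not single out THI2.2. Without KO-30 the PDF1.2 difference was 1.60, with an exact permutation p of 0.0476, the smallest that 5 lines and 2 Col-0 arrays allow. KO-30 is the line that overlapped Col-0, so singling out its omission favours a small p. Leaving out any other single line gave an exact permutation p of 0.190 for PDF1.2. PDF1.2b without KO-30 gave an exact permutation p of 0.0952. The THI2.2 difference was -0.47 without Col-0-L, and with 1 Col-0 array left its exact permutation test cannot go below 0.143.

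**Figure D2:**
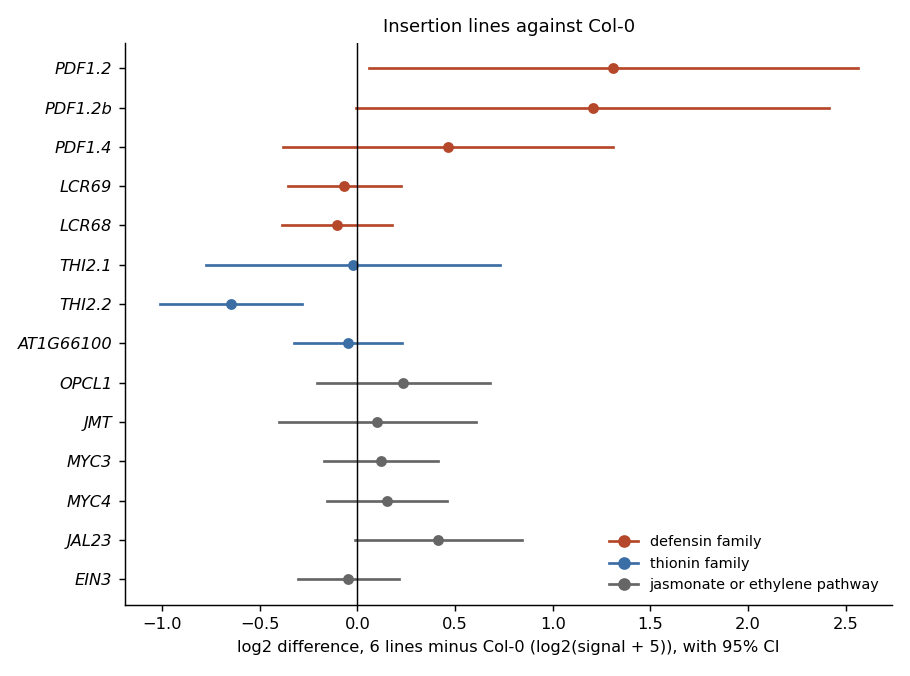
Log2 difference of the 6 lines minus Col-0 (log2(signal + 5)) with its 95% confidence interval for the defensin family (red), the thionin family (blue) and jasmonate or ethylene pathway genes (grey) past the filter. The intervals of PDF1.2 (0.06 to 2.56) and THI2.2 (-1.01 to -0.28) do not cross 0, and no gene passed after adjustment over all probe sets.

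Single lines were next compared with Col-0, with the spread pooled over Col-0 and the other lines, so that a lone array was assumed to vary like the others. All 6 comparisons share the same 2 Col-0 arrays. KO-40 had the greatest defensin difference: its PDF1.2 signal was 6.13 times the Col-0 mean, a log2 difference of 2.64 ± 0.67 (SE, 95% interval 1.14 to 4.15), the seventh largest positive difference of all probe sets tested. Its PDF1.2b signal was 5.75 times the Col-0 mean, a log2 difference of 2.53 ± 0.63 (1.102 to 3.96). Neither passed limma in KO-40 (adjusted p = 0.436 for both), where 0% of probe sets were called.

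In KO-54 the PDF1.2 signal was 3.55 times the Col-0 mean (log2 difference 1.86 ± 0.86) and PDF1.2b 3.58 times (1.85 ± 0.82), with limma adjusted p of 0.493 and 0.476 and 0.0691% of probe sets called. By size of positive difference, PDF1.2 ranked 6 of 15922 in KO-02, 14 in KO-07, 9 in KO-54, 172 in KO-56 and 10532 in KO-30. These ranks are by size alone and leave out the spread. The 95% interval of PDF1.2 was -0.47 to 3.50 in KO-02, -0.76 to 3.19 in KO-07 and -0.10 to 3.81 in KO-54. Those in KO-56 and KO-30 also included negative values. The PDF1.2 log2 differences were smaller in KO-02 (1.52), KO-07 (1.22) and KO-56 (0.76, and 0.42 without Col-0-L), and KO-30 had -0.14. PDF1.2b gave 1.31 in KO-02, 1.08 in KO-07, 0.58 in KO-56 and -0.12 in KO-30.

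THI2.2 was lower in each line, with log2 differences from -0.91 ± 0.23 in KO-54 to -0.27 ± 0.20 in KO-02, and limma adjusted p between 0.296 and 1.00. For 5 of the lines its 95% interval lay below 0, the exception being KO-02 (-0.73 to 0.19). An interval off 0 is an unadjusted p under 0.05, which held for 1.65% of the probe sets tested in KO-07, 5.5% in KO-56, 6.68% in KO-40, 8.48% in KO-30 and 10.5% in KO-54, beside 2.29% in KO-02. These lines share their 2 Col-0 arrays. In KO-02 the THI2.2 difference was -0.09 without Col-0-L and -0.45 without Col-0-S. THI2.1 had its largest differences in KO-30 (0.75 ± 0.41) and KO-02 (-0.68 ± 0.45), with intervals that included 0 in all 6 lines. These values moved with the Col-0 array used: without Col-0-L they were 0.40 in KO-30, -1.04 in KO-02 and -0.87 in KO-56, and without Col-0-S they were 1.11, -0.33 and -0.16 in those lines. In no line was any of the 4 genes called. The share of probe sets called was 0% in KO-02 and KO-07 and 0.00628% in KO-30 and KO-56.

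**Figure D3:**
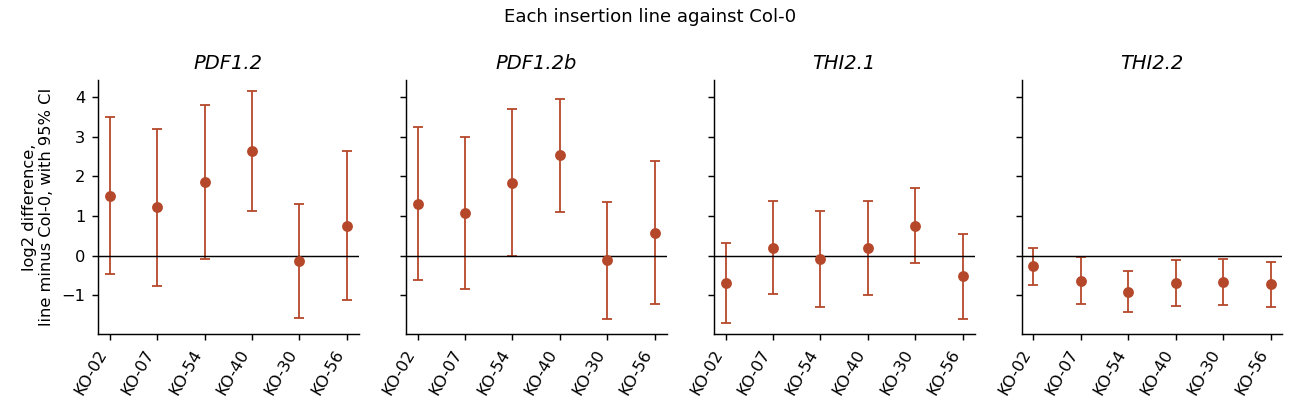
Log2 difference of each insertion line minus Col-0 for the 4 genes; points are single arrays set against the mean of 2 Col-0 arrays and bars are 95% confidence intervals from the pooled spread. The defensin differences run from -0.14 (PDF1.2 in KO-30) to 2.64 (PDF1.2 in KO-40), while THI2.2 is below 0 in every line.

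Setting a line against the other 5 lines leaves the Col-0 arrays out of the difference. The lines given with values here, KO-40, KO-30 and KO-02, were chosen as the highest or lowest line for the gene in question. Because that choice used these same values, it favours large differences and intervals off 0. PDF1.2 was higher in KO-40 than in the other lines by a log2 difference of 1.60 ± 0.60 (95% interval 0.26 to 2.95), and PDF1.2b by 1.59 ± 0.57 (0.31 to 2.87), with a limma adjusted p of 0.999 for both and 0% of probe sets called. KO-30 differed from the other lines by -1.73 ± 0.57 for PDF1.2 (-3.02 to -0.45) and -1.59 ± 0.58 for PDF1.2b (-2.90 to -0.28). THI2.1 went the other way in KO-30, with 0.93 ± 0.37 (0.09 to 1.77). The limma adjusted p in KO-30 were 0.238, 0.271 and 0.309 for these 3 genes, with 0.00628% of probe sets called. The actin 3' to 5' ratio was 15.4 in KO-30 and 8.41 in KO-40, and its part in these differences was not tested. None of the 4 genes was called in the remaining lines set against the others, where the share of probe sets called was 0% for KO-02 and KO-07, 0.126% for KO-54 and 0.0691% for KO-56. THI2.2 in KO-02 was above the other lines by a log2 difference of 0.45 ± 0.18 (0.04 to 0.86), with a limma adjusted p of 1.00. Intervals off 0 in this comparison were found for 2.42% of probe sets in KO-02, 3.93% in KO-40 and 14.2% in KO-30.

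Of 15 defensin genes listed, 12 had a single-gene probe set and 5 passed the filter. These 5 were PDF1.2, PDF1.2b, PDF1.4, LCR69 and LCR68, and 0 were called. Their median log2 difference of 0.46, beside -0.01 over all probe sets tested, includes PDF1.2 and PDF1.2b. The median of the other 3 was -0.07, the value of LCR69, and none of the 3 spread as widely over the lines as PDF1.2. PDF1.4, another gene of the PDF1 class, had a signal of 76.8 in KO-54, 71.8 in KO-40, 45.7 in KO-02, 43.3 in KO-07, 26.6 in KO-30 and 22.2 in KO-56, against Col-0 signals of 32.3 (L) and 28.4 (S). Here 4 lines lay above both Col-0 arrays and 2 below both, and the log2 difference was 0.46 ± 0.38 (limma adjusted p = 0.989). Its log2 values had r = 0.84 with PDF1.2 over the 8 arrays (rho = 0.76), which placed it at rank 187 by likeness among 8746 single-gene probe sets, PDF1.2b, THI2.1 and THI2.2 left out.

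LCR69 and LCR68, also named PDF2.2 and PDF2.3, were bright and nearly level. LCR69 lay between 1562 and 2183 in the lines, against Col-0 signals of 1973 (L) and 1934 (S), a log2 difference of -0.07 ± 0.13. LCR68 lay between 751 and 993 in the lines, against Col-0 signals of 911 (L) and 917 (S), a log2 difference of -0.11 ± 0.13. Their lowest lines were KO-40 for LCR69 and KO-54 for LCR68, the lines with the highest PDF1.2 signals, and their r with PDF1.2 was -0.87 and -0.79. The other 7 measured defensins (LCR67, also named PDF1.1, PDF2.1, LCR66, PDF2.5, LCR72, LCR80 and LCR59) were too dim for the filter. PDF2.1 was the only one of them whose lines all lay below both Col-0 arrays, with 0.905 to 3.39 in the lines, against 4.83 ± 0.285 in Col-0 (SD, n = 2), and those levels are under the pseudocount of 5.

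Of the 4 thionin genes listed, 3 passed the filter, THI2.1 and THI2.2 among them, and 0 were called, with a median log2 difference of -0.05. AT1G66100, the third of them, lay between 364 and 459 in the lines, against Col-0 signals of 476 (L) and 389 (S), a log2 difference of -0.05 ± 0.12, so its groups overlapped. Both THI2.1 and AT1G66100 thus had log2 differences near 0, beside -0.65 for THI2.2; the differences between these genes were not tested. AT2G15010 was too dim for the filter.

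Of 60 other genes of the jasmonate and ethylene pathways, 6 had a single-gene probe set, and all of these passed the filter. None was called in either direction, 5 were higher and 1 was lower in the lines, and the median log2 difference was 0.14. Over all 15922 probe sets tested, 7529 were higher and 8393 lower, with a median of -0.01. No gene of the ERF branch that controls PDF1.2, such as ERF1 or ORA59, was among the 6. In jasmonate synthesis, OPCL1, a CoA ligase that prepares jasmonate precursors for chain shortening, had 335 in KO-40, 324 in KO-54, 281 in KO-07, 256 in KO-56, 245 in KO-02 and 189 in KO-30, against Col-0 signals of 247 (S) and 207 (L). Its log2 difference was 0.24 ± 0.20, with 4 lines above both Col-0 arrays and KO-30 below both. Its r with PDF1.2 was 0.91 (rho = 0.83).

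JMT, which makes methyl jasmonate, had a log2 difference of 0.10 ± 0.23 at low signals of 7.24 to 17.1 in the lines, against 10.8 ± 5.17 in Col-0. Among regulators, MYC3 and MYC4, which drive the other branch of jasmonate responses, had 0.12 ± 0.13 and 0.15 ± 0.14. JAL23, a jacalin-related lectin, had 264 ± 39.4 in the lines (SD, n = 6) and 199.6 ± 61.4 in Col-0 (SD, n = 2), a log2 difference of 0.42 ± 0.19, with 5 of 6 lines above both Col-0 arrays. EIN3, the master regulator of ethylene responses, lay between 425 and 486 in the lines, against Col-0 signals of 518 (L) and 419 (S), a log2 difference of -0.05 ± 0.12. The limma adjusted p of all 6 was between 0.989 and 0.993.

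PDF1.2b had the profile most like PDF1.2 (r = 0.996) and was left out of the ranking with the thionins. Among the other 8746 single-gene probe sets past the filter, the 5 with the highest Pearson r of log2 values over the 8 arrays were AT5G05600 (r = 0.980), OSM34 (0.974), AT4G16260 (0.974), AT1G21550 (0.968) and AT4G18250 (0.963), and each kept an r of at least 0.931 without the 2 arrays farthest from the PDF1.2 median. These correlations describe 8 arrays that share their Col-0 pair and their scaling. The 5 genes were chosen by this likeness, so levels that follow PDF1.2 over the arrays are no separate evidence. OSM34, which encodes an osmotin-like protein, had 471 in KO-40, 223 in KO-54, 178 in KO-02, 163 in KO-07, 108 in KO-56 and 45.4 in KO-30, against Col-0 signals of 44.0 (L) and 41.3 (S). All 6 lines lay above both Col-0 arrays, as for 3.13% of the probe sets tested, though KO-30 did so narrowly. Its log2 difference of the lines minus Col-0 was 1.78, and its limma adjusted p was 0.989.

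AT4G16260 had 1308 in KO-40, 454 to 467 in KO-02, KO-07 and KO-54, 232 in KO-56 and 129 in KO-30, against Col-0 signals of 137 (S) and 118 (L), a log2 difference of 1.60. The remaining 3 genes had smaller log2 differences, of 0.44 for AT5G05600, 0.48 for AT1G21550 and 0.65 for AT4G18250, each with a limma adjusted p of 0.989.

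**Figure D4:**
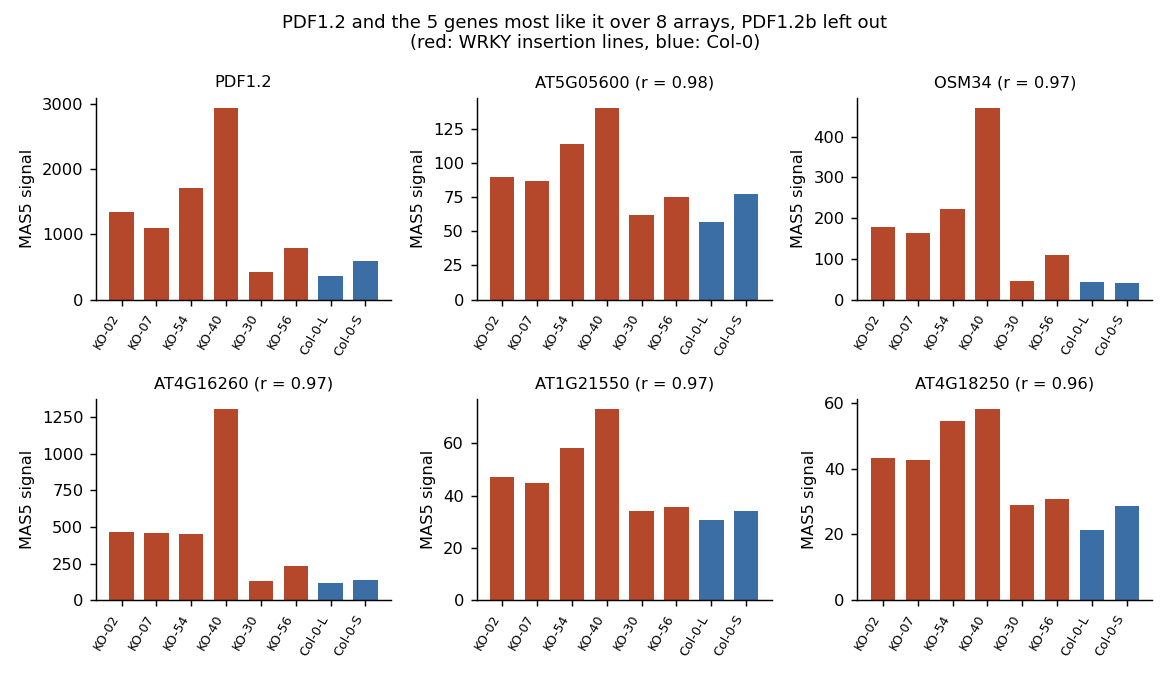
MAS5 signal (linear) of PDF1.2 and of the 5 single-gene probe sets with the highest Pearson r to it over the 8 arrays after PDF1.2b, which is not shown, with insertion lines in red and Col-0 in blue. KO-40 is the highest array in all 6 panels, which largely follows from choosing the 5 by likeness to PDF1.2 on these arrays. OSM34 reaches 471 in KO-40, against 44.0 (L) and 41.3 (S) in Col-0.

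The genes most like THI2.1 varied less from line to line than the thionin itself. They were AT3G01430 (r = 0.939), AT4G28450 (0.931), AT4G02540 (0.931), AT5G54970 (0.922) and IDH-VI, an isocitrate dehydrogenase gene (0.918). IDH-VI had 110.2 in KO-30 and 84.9 to 95.2 in the other lines, against Col-0 signals of 95.8 (S) and 88.0 (L). For THI2.2 the most similar were AT2G27460 (r = 0.967), AT3G53320 (0.946), AT4G20430 (0.943), AT3G07940 (0.933) and AT3G01980 (0.930). Within the 6 lines alone, these 5 had r between 0.730 and 0.966 with THI2.2. The 2 arrays farthest from the THI2.2 median were the Col-0 pair, so leaving those out gave the same values.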

How the data were processed

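The authors deposited 1 intensity value per probe set and array, on the linear MAS5 scale that the submitters' processing notes name, without a version. Array columns were matched to samples by name, 0 lacked a sample, and groups follow the source names (6 WRKY T-DNA knockout arrays and 2 Col-0 arrays). With 64 control probe sets removed, signals were raised by a pseudocount of 5 (from the 20th percentile) and put on the log2 scale, and a filter on mean log2 at the 30th percentile left 15922 of 22746 probe sets. In the platform annotation 13513 probe sets have 1 gene, 503 several, and 8730 are unlisted; current symbols came from a TAIR10.1 gene table with entries for 13436 of the first kind.

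Limma 3.58.1 (R 4.3.3; lmFit, eBayes, two-sided, Benjamini-Hochberg adjustment over all 15922, threshold 0.05) compared the lines with Col-0, leaving 6 residual degrees of freedom. For single lines, a model of 3 levels (the line, Col-0, the other 5 lines) left 5. For 1 gene at a time an exact permutation test was used. The procedure was tested on simulated data. Genes named are the 4 members, their measured families, up to 4 genes of each pathway list by size of difference, and the 5 single-gene probe sets most like PDF1.2, THI2.1 and THI2.2. The members and lists were chosen with earlier results of these data known. Alternatives were a pseudocount of 1 or 21, no filter or one at the median, quantile normalization, median centring, trended and robust variances, and leaving out arrays.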

Additional observations from a re-analysis of the deposited data

Results flagged for a closer look

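Among 42 probe sets tested for a line that stands apart from the other 5, 2 passed the critical value of 0.625 for the gap over the range, and chance alone picks out about 1 in 20. Both belong to genes chosen for their likeness to THI2.2, a gene that is also highest in KO-02 among the lines. For AT2G27460 the gap between KO-02 (signal 85.6) and the next line made up 0.698 of the range of log2 values in the lines. For AT4G20430 (signal 52.2 in KO-02) it made up 0.706. None of PDF1.2, PDF1.2b, THI2.1 and THI2.2 had such a line; KO-40 did not stand apart in this sense.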

How the results depend on the processing

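No paired analysis was possible because each line was measured once and the titles give every array the same replicate number, which pairs no samples. No other pseudocount, filter, normalization or variance setting turned the direction of any of the 4 genes in the lines against Col-0, and none of the 4 passed limma under them. Leaving out 1 array gave log2 differences of 0.97 to 1.65 for PDF1.2, 0.94 to 1.47 for PDF1.2b, -0.38 to 0.33 for THI2.1 and -0.82 to -0.47 for THI2.2. Without KO-30, whose omission favours a small p because that line overlapped Col-0, the exact permutation p was 0.0476 for PDF1.2 and 0.0952 for PDF1.2b. It was 0.143 for both with every array, and these runs were not corrected for their number. THI2.2 missed that test without KO-54 and KO-30 together (-0.58, exact permutation p = 0.0667, the smallest the fewer arrays allow). With either Col-0 array left out, the test cannot reach 0.05 for any gene. Against Col-0, the same omissions gave THI2.1 -0.15 to 0.55 in KO-07, -0.17 to 0.54 in KO-40 and -0.43 to 0.28 in KO-54. In KO-30 they gave -0.47 to 0.20 for PDF1.2 and -0.36 to 0.12 for PDF1.2b. The single-line signs changed only with a Col-0 array left out; THI2.1 over all lines also changed sign without KO-02 or KO-56.

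Counts of probe sets called moved more, and the cause was not tested. With trended and robust variances the lines against Col-0 gave 1, not 0. KO-54 against Col-0 (11 as reported) gave 20 with a pseudocount of 1, 7 with 21, 0 without the filter, 18 with trended and robust variances and 0 to 17 without 1 array. KO-54 against the other lines (20) gave 13 with a pseudocount of 21, 0 without the filter, 38 with trended and robust variances and 4 to 28 without 1 array. KO-40 against Col-0 (0) gave 4 with a pseudocount of 21, 1 with trended and robust variances and 0 to 1 without 1 array, and against the other lines (0) it gave 2 with a pseudocount of 21. KO-30 against Col-0 (1) gave 2 without the filter, and against the other lines (1) 2 without the filter, 20 with the filter at the median and 50 with trended and robust variances. KO-56 against Col-0 (1) gave 6 without the filter, 0 to 3 without 1 array, and 0 with a pseudocount of 21, with the median filter, with trended and robust variances and without KO-54 and KO-30. KO-56 against the other lines (11) gave 26 without the filter, 19 with quantile normalization, 0 to 2 without 1 array, and 0 under those same 4 settings.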

Other observations

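The following genes were chosen after their values were seen. Besides PDF1.2, 4 of the 15922 probe sets ordered the 8 arrays exactly as PDF1.2 did. They were PDF1.2b, AT1G21550 and 2 unlisted probe sets. AT1G21550 had 73.3 in KO-40 and 34.3 in KO-30, against Col-0 signals of 34.4 (S) and 30.6 (L).

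The single-gene probe sets most opposed to PDF1.2 over the 8 arrays were CYTC6A, which encodes a cytochrome c6-like protein of the chloroplast (r = -0.982), AT1G32470 (-0.975), AT1G06830 (-0.967), AT3G02450 (-0.966) and AT5G65220 (-0.962). CYTC6A and AT1G32470 both ordered the 8 arrays in exactly the reverse of PDF1.2 (rho = -1). CYTC6A had 71.2 in KO-40, 75.9 in KO-54, 78.0 in KO-02, 83.5 in KO-07, 87.2 in KO-56 and 93.6 in KO-30, against Col-0 signals of 88.7 (S) and 102 (L). The differences were small beside those of PDF1.2, with 1.32 times between its highest and lowest line.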
